A study of Mus musculus with 6 samples.

Results

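The 10 acute-phase genes *Saa1*, *Saa2*, *Saa3*, *Saa4*, *Hp*, *Orm1*, *Orm2*, *Lcn2*, *Apcs* and *Crp* were taken by symbol from a gene expression table of mouse liver tumors. All 10 were among the 34745 genes of the table, and all 10 were among the 13892 genes with enough counts to be tested. RNA-seq was done on 6 tumors, 3 from the *Prmt3*f/f and 3 from the *Prmt3*LKO genotype. The question was whether acute-phase genes differed in tumors of mice whose hepatocytes lack the arginine methyltransferase gene *Prmt3*.

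*Prmt3*f/f mice carry floxed *Prmt3* alleles without Cre and are labelled as wild type. *Prmt3*LKO mice carry the same floxed alleles with Cre under the albumin promoter, so that deletion is limited to cells that use this promoter, and other cells of the tumor keep the gene. All mice were male. When 2 weeks old they were given 25 mg/kg of the liver carcinogen diethylnitrosamine. Repeated doses of 10% carbon tetrachloride in oil (0.5 ml/kg) followed from 6 weeks, and tumors were taken at 26 weeks. Both groups therefore carry a chronic liver injury, and tissue without tumor was not analysed here. The sources used here do not say whether each tumor came from a separate mouse, so p-values measure the spread between these tumors. Tumors are named by their replicate numbers, which are 7, 66 and 71 for *Prmt3*f/f and 92, 93 and 94 for *Prmt3*LKO, and values are given in this order.

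Acute-phase proteins are plasma proteins whose output from the liver changes in inflammation, infection and injury. Interleukin-6 and its relatives signal to hepatocytes through the gp130 receptor and the transcription factor STAT3, while interleukin-1 and tumor necrosis factor act through NF-kB, and factors of the C/EBP family act on many of the same promoters. In mice, serum amyloid A and serum amyloid P are the leading reactants, whereas C-reactive protein, the classical human marker, changes little. *Saa1* and *Saa2* are made mainly by hepatocytes, *Saa3* is known for its expression outside hepatocytes, in macrophages and adipocytes among others, and *Saa4* is the constitutive member of the family.

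The tumors had total counts of 18440244 to 27976598. *Prmt3*, the deleted gene, was at 6.601, 8.49 and 10.2 CPM (counts scaled to the library total) in *Prmt3*f/f tumors and at 2.80, 2.03 and 3.82 CPM in *Prmt3*LKO tumors. All 3 *Prmt3*LKO tumors were below all 3 *Prmt3*f/f tumors, with a log2 fold change (*Prmt3*LKO minus *Prmt3*f/f) of -1.55 (SE 0.29), an unadjusted p of 0.000827 and an adjusted p of 0.592 in edgeR's quasi-likelihood test. By DESeq2 the adjusted p was 0.00357. Hepatocyte markers such as albumin were abundant in every tumor, with a summed level of 137716 to 198075 CPM in *Prmt3*f/f and 152738 to 164217 CPM in *Prmt3*LKO tumors. Most of this sum was albumin, and some markers, named after their values were seen, varied more. *Tat* was at 355, 1271 and 1782 CPM in *Prmt3*f/f and 1749, 374 and 1938 CPM in *Prmt3*LKO tumors. *Hpd*, *Cps1* and *Ass1* were also lowest in replicates 7 and 93, whereas *Hnf4a* stayed at 622 to 760 CPM.

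The 4 serum amyloid A genes lie side by side on chromosome 7 and have related coding sequences. Because this decides how well reads can be assigned to each of them, and because *Saa3* behaves apart from its relatives below, the first 120 coding bases of each gene (GENCODE M21, GRCm38) are shown, with capitals at positions that differ from *Saa1*.
Saa1: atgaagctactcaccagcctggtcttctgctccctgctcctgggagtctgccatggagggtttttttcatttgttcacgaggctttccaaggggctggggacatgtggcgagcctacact
Saa2: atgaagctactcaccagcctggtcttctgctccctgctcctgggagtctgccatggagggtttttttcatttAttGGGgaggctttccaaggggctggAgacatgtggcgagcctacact
Saa3: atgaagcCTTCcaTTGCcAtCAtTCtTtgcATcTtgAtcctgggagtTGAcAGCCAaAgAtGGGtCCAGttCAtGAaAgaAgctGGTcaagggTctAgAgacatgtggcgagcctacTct
Saa4: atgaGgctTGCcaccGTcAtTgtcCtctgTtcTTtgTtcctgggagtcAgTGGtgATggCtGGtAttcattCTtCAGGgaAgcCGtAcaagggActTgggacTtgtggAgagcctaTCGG
*Saa2* differed from *Saa1* at 5 of these positions, *Saa4* at 41 and *Saa3* at 48. Over the whole coding sequence, *Saa1* and *Saa2* were identical at 95.1% of aligned bases, *Saa1* and *Saa3* at 74.3%, and *Saa1* and *Saa4* at 64.4%. Of all stretches of 50 bases in the *Saa1* transcript, 13.2% were also in *Saa2* and 1.61% in *Saa3*, and none of 150 bases was shared. For *Orm1* and *Orm2* the coding identity was 89.9%, and 20.4% of the stretches of 50 bases in *Orm1* were in *Orm2*. How reads that match more than 1 gene were counted is not given in the sources used here, so the split of reads within *Saa1* and *Saa2* and within *Orm1* and *Orm2* is uncertain, while *Saa3* and *Saa4* are well separated by sequence. None of the 10 genes shared an exon base with another gene in GENCODE M21.

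Promoter sequences, 250 bases before to 50 after the start (RefSeq, GRCm38.p6), matched for 8 of the 10 genes, and those of the 3 serum amyloid A genes that are compared most closely below are shown, with capitals at matches to the C/EBP motif TTGCNNAA, searched on both strands.
Saa1, chr7:46742931-46743230, minus strand: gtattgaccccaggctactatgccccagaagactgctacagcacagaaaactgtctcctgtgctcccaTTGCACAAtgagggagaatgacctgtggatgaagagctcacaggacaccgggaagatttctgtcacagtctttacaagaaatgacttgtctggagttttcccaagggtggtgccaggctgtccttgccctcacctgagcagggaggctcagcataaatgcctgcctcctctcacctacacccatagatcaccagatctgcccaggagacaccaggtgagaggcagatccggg
Saa2, chr7:46751583-46751882, plus strand: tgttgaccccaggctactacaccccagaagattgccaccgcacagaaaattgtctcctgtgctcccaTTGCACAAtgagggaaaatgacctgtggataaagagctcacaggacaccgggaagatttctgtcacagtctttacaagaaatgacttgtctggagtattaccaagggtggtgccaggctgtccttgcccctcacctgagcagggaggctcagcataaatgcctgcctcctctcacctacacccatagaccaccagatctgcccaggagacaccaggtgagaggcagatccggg
Saa3, chr7:46715627-46715926, minus strand: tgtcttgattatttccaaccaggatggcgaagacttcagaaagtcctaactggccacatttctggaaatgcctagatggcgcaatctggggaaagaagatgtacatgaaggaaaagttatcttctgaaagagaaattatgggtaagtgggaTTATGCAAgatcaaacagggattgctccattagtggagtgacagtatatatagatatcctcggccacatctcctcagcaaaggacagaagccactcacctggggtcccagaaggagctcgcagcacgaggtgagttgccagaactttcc
The promoters of *Saa1* and *Saa2* were identical at 95.3% of aligned positions and those of *Saa1* and *Saa3* at 49.4%. The C/EBP motif was found in 6 of the 8 promoters, those of *Saa1*, *Saa2*, *Saa3*, *Saa4*, *Orm2* and *Lcn2*, against 10.8% of all 32851 promoters of this length. The match starts 182 bases before the start in *Saa1*, 183 in *Saa2* and 99 in *Saa3*. The STAT motif TTCNNNGAA was found in the promoter of *Apcs* alone among the 8, against 8.30% of all promoters, and the NF-kB consensus was found in 0 of the 8, against 8.46%. These matches describe the letters in these windows.

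None of the 10 acute-phase genes was called lower or higher in *Prmt3*LKO tumors at an adjusted p under 0.05 with at least a 2-fold change in edgeR's quasi-likelihood test. In each direction, 0% of the 13892 genes tested were called, and the smallest adjusted p over all genes was 0.0879. At an unadjusted p under 0.05, 1 of the 10 was lower in *Prmt3*LKO tumors, against 4.37% of all genes, and 0 were higher, against 2.2%. With the 2-fold limit added, the counts were 1 lower, against 1.77%, and 0 higher, against 0.317%. That gene was *Saa3*. It was also the 1 gene of the 10 whose groups did not overlap with *Prmt3*LKO lower, against 6.6% of all genes, and 0 of the 10 lay higher without overlap, against 5.56%. The exact permutation test over 3 against 3 tumors cannot give a p below 0.1, which *Saa3* reached, and the other 9 genes had exact permutation p-values of 0.6 to 1. The median log2 fold change of the 10 was -0.083, with 7 negative and 3 positive values, beside 0.00037 over all genes tested. Without *Saa3* the median of the 9 others was -0.076.

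**Figure D1:**
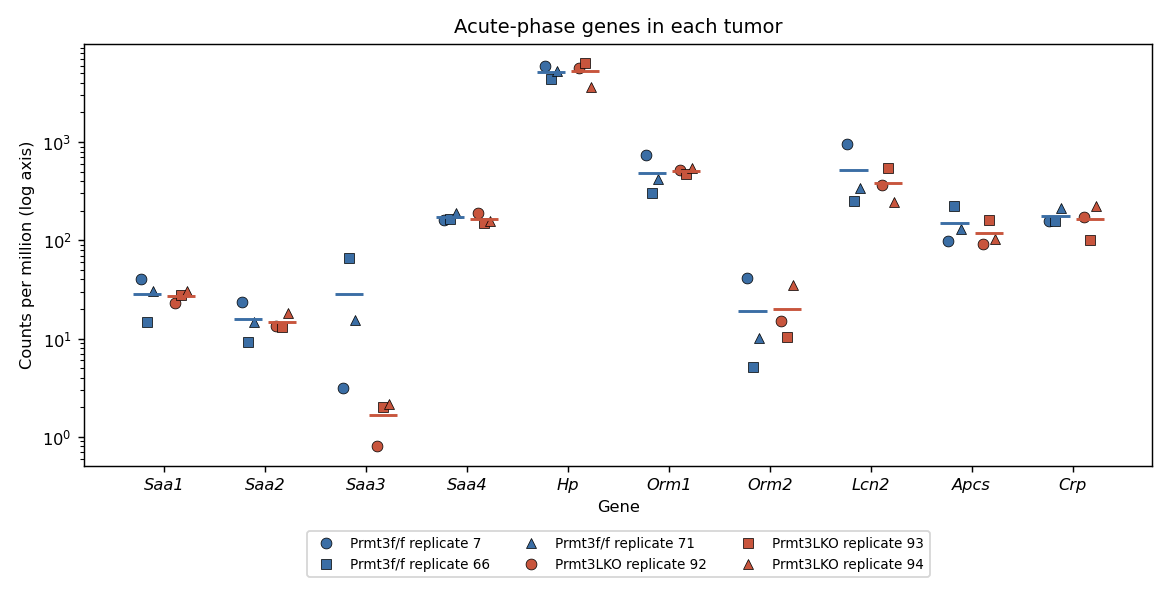
Level of each acute-phase gene in each tumor, in CPM on a log axis. Points are tumors, marked by replicate, and short lines are group means. The tumors of both genotypes overlap for every gene but *Saa3*, where the *Prmt3*LKO tumors sit between 0.800 and 2.16 CPM and the *Prmt3*f/f tumors between 3.14 and 66.01 CPM.

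Among the serum amyloid A genes, *Saa3* (ENSMUSG00000040026, chr7:46711998-46715676, minus strand, GRCm38) gave the largest difference between genotypes. Its counts were 68, 1415 and 437 in *Prmt3*f/f tumors and 14, 45 and 43 in *Prmt3*LKO tumors, which are 3.14, 66.01 and 15.4 CPM and 0.800, 2.03 and 2.16 CPM. Every *Prmt3*LKO tumor was below every *Prmt3*f/f tumor, but the lowest *Prmt3*f/f tumor, replicate 7, was close to the *Prmt3*LKO tumors, and replicate 66 was far above both others. The mean was 28.2 ± 33.3 CPM (SD, n = 3) in *Prmt3*f/f and 1.66 ± 0.751 CPM (SD, n = 3) in *Prmt3*LKO tumors. The log2 fold change of -4.06 (SE 1.04) was the lowest of all 13892 genes tested. Its unadjusted p of 0.00495 was the 109th smallest and its adjusted p was 0.592 in edgeR's quasi-likelihood test. The spread within genotypes was also wide, with an SD of log2 CPM of 2.18 among *Prmt3*f/f tumors and 0.75 among *Prmt3*LKO tumors.

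The size of the *Saa3* difference rested in part on 1 tumor. Without *Prmt3*f/f replicate 66 the log2 fold change was -2.47, and without *Prmt3*f/f replicate 7 it was -4.60. The adjusted p was 0.0628 by DESeq2, 0.0238 by the edgeR exact test, which called it along with 0.252% of all genes as lower and 0.036% as higher, and 0.836 by limma-voom.

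Because *Saa3* is made by macrophages among other cells, markers of such cells were set beside it. The 10 macrophage markers summed to 928, 1198 and 639 CPM in *Prmt3*f/f tumors and 580.2, 437 and 619 CPM in *Prmt3*LKO tumors, so that the groups did not overlap. Within genotypes the sum did not follow *Saa3*, since replicate 71 had more *Saa3* than replicate 7 and a lower sum. *Lyz2* alone gave 386, 675 and 160 CPM of the *Prmt3*f/f sums. In *Prmt3*f/f tumors *Adgre1*, *Cd68*, *Csf1r* and *Marco* had the same order as *Saa3*. *Clec4f*, *Timd4*, *Vsig4*, *Cd5l*, *Lyz2* and *Itgam* did not. None of the 10 markers had the order of *Saa3* in *Prmt3*LKO tumors. Of these markers, 7 of 10 were lower at an unadjusted p under 0.05 by edgeR's quasi-likelihood test, against 4.37% of all genes. None was higher, against 2.2%, and none passed the adjusted p. The other 3, all known from resident liver macrophages, overlapped between genotypes, with log2 fold changes of -0.052 for *Clec4f*, -0.091 for *Cd5l* and -0.32 for *Vsig4*. Among the 7, *Cd68* and *Lyz2* overlapped as well. *Timd4*, also known from resident liver macrophages, was lower without overlap (log2 fold change -1.29, SE 0.29, adjusted p 0.592 by edgeR). It was at 3.00, 3.22 and 4.29 CPM in *Prmt3*f/f and 1.31, 1.71 and 1.26 CPM in *Prmt3*LKO tumors. Apart from *Marco* and *Itgam*, the macrophage markers were named after their values were seen. *Marco*, a scavenger receptor of macrophages, was at 12.0, 37.2 and 18.3 CPM in *Prmt3*f/f and at 4.11, 4.06 and 5.73 CPM in *Prmt3*LKO tumors (log2 fold change -2.28, SE 0.41, adjusted p 0.592 by edgeR). *Itgam*, an integrin of myeloid cells, was at 8.96, 17.4 and 3.09 CPM against 1.43, 0.857 and 1.06 CPM (log2 fold change -3.14, SE 0.62, adjusted p 0.592 by edgeR). Both were highest in *Prmt3*f/f replicate 66, the tumor with the most *Saa3*, but the second highest tumor was replicate 71 for *Marco* and *Saa3* and replicate 7 for *Itgam*.

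Neutrophil markers were lower as a sum in the same genotype as *Saa3*. The 13 markers summed to 35.7, 22.2 and 23.9 CPM in *Prmt3*f/f and 11.3, 13.5 and 9.95 CPM in *Prmt3*LKO tumors, without overlap. Within *Prmt3*f/f tumors the order of the sum was the reverse of that of *Saa3*, with replicate 7 highest and 66 lowest. *Prmt3*LKO replicate 94 had the most *Saa3* and the lowest neutrophil sum of its group. Among the markers tested, *S100a8*, *S100a9*, *Cxcr2* and *Csf3r* had the order of the sum in *Prmt3*f/f tumors. *Ltf*, *Ngp*, *Retnlg* and *Mmp9* did not. All of these but *S100a8* and *Csf3r* were named after their values were seen. Of 8 neutrophil markers tested, 5 were lower at an unadjusted p under 0.05, against 4.37% of all genes, and 0 were higher. The granulocyte colony-stimulating factor receptor *Csf3r* was at 12.3, 7.51 and 8.79 CPM against 3.83, 5.41 and 4.37 CPM (log2 fold change -1.07, SE 0.25, adjusted p 0.592 by edgeR). The alarmin *S100a8* was at 2.82, 1.54 and 1.86 CPM against 0.629, 0.857 and 0.452 CPM. The defining neutrophil marker *Ly6g* had 3 counts in *Prmt3*f/f replicate 71 and 0 in the other 5 tumors. Adipocyte markers were mixed. *Adipoq* and *Lep* were at 0 counts in all 6 tumors, whereas *Cidec*, *Lipe* and *Fabp4* had at least 143 counts in each tumor. *Adipoq*, *Lep* and *Cidec* were named after their values were seen. The part of macrophages and neutrophils in the *Saa3* difference was not tested, and in bulk tumors fewer cells of a type and less RNA per cell cannot be told apart.

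*Saa1* (ENSMUSG00000074115, chr7:46740501-46742980, minus strand) showed no such separation. It was at 40.4, 14.8 and 30.3 CPM in *Prmt3*f/f tumors and 22.8, 28.1 and 30.2 CPM in *Prmt3*LKO tumors. The highest and the lowest tumor were both *Prmt3*f/f, with the *Prmt3*LKO tumors between them. The means were 28.5 ± 12.9 and 27.0 ± 3.81 CPM (SD, n = 3 each), with a log2 fold change of -0.076 (SE 0.33, adjusted p 0.989 by edgeR).

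*Saa2* (ENSMUSG00000057465, chr7:46751833-46754314, plus strand) had the same shape, with 23.5, 9.19 and 14.7 CPM in *Prmt3*f/f and 13.3, 13.2 and 18.04 CPM in *Prmt3*LKO tumors. *Prmt3*f/f replicate 7 was again the highest and replicate 66 the lowest. The means were 15.8 ± 7.24 and 14.8 ± 2.77 CPM, with a log2 fold change of -0.089 (SE 0.33, adjusted p 0.988 by edgeR). Replicate 66, the lowest tumor for *Saa1* and *Saa2*, was the highest for *Saa3*. Without replicate 7 the log2 fold changes turned to 0.25 for *Saa1* and 0.31 for *Saa2*.

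*Saa4* (ENSMUSG00000040017, chr7:46728017-46732543, minus strand), the constitutive member, was the steadiest of the 10 genes. It was at 160.1, 163 and 189.0 CPM in *Prmt3*f/f and at 189.6, 149.5 and 158.5 CPM in *Prmt3*LKO tumors, a range of 1.27-fold from the lowest to the highest tumor. The log2 fold change was -0.042 (SE 0.16, adjusted p 0.988 by edgeR). Per length, as FPKM (fragments scaled to gene length and library total), *Saa4* was above *Saa1* in each of the 6 tumors, with 77.2 to 95.4 FPKM against 23.9 to 68.7 FPKM.

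*Hp* encodes haptoglobin, which binds free hemoglobin in plasma, and was the most abundant of the 10 genes. It lies at chr8:109575130-109579172 on the minus strand (ENSMUSG00000031722). It was at 5952, 4381 and 5286 CPM in *Prmt3*f/f tumors and 5692, 6343 and 3642 CPM in *Prmt3*LKO tumors. The highest and the lowest tumor were both *Prmt3*LKO. The means of 5206 ± 788 and 5226 ± 1409 CPM (SD, n = 3 each) differed by a log2 fold change of 0.0053 (SE 0.29, adjusted p 0.998 by edgeR), a difference far below the spread between tumors. *Hp* alone took 0.359% to 0.660% of all counts of a tumor.

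*Orm1* and *Orm2* encode alpha-1-acid glycoproteins, which carry lipophilic ligands in plasma, and lie close together on chromosome 4. *Orm1* (ENSMUSG00000039196, chr4:63344560-63348163, plus strand) was at 732, 305 and 424 CPM in *Prmt3*f/f and 522, 471 and 544 CPM in *Prmt3*LKO tumors. The 3 *Prmt3*LKO tumors lay close together, between the extremes of the *Prmt3*f/f tumors. The means were 487 ± 220.3 and 513 ± 37.6 CPM, with a log2 fold change of 0.074 (SE 0.31, adjusted p 0.989 by edgeR).

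*Orm2* (ENSMUSG00000061540, chr4:63362449-63365878, plus strand) varied more, with 41.3, 5.13 and 10.2 CPM in *Prmt3*f/f and 15.1, 10.4 and 34.98 CPM in *Prmt3*LKO tumors. The range from lowest to highest tumor was 8.05-fold, and both ends were *Prmt3*f/f tumors. The log2 fold change was 0.095 (SE 0.76, adjusted p 0.996 by edgeR) and moved between -0.57 without *Prmt3*LKO replicate 94 and 1.38 without *Prmt3*f/f replicate 7. Its counts were 110 to 895 per tumor.

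*Lcn2* (ENSMUSG00000026822, chr2:32384633-32388252, minus strand) encodes lipocalin 2, which binds bacterial siderophores and is made both by hepatocytes and by neutrophils. It was at 963.5, 253 and 344 CPM in *Prmt3*f/f and 368, 546 and 243 CPM in *Prmt3*LKO tumors. *Prmt3*f/f replicate 7 was again far above the rest, and the other 5 tumors were mixed. The means were 520.3 ± 386 and 385 ± 152 CPM (SD, n = 3 each), with a log2 fold change of -0.43 (SE 0.52, adjusted p 0.955 by edgeR). Without replicate 7 the direction turned, to 0.36. The order of the *Prmt3*LKO tumors for *Lcn2*, with replicate 93 highest and 94 lowest, was also that of their neutrophil marker sum. So was the order of the *Prmt3*f/f tumors, with replicate 7 highest and 66 lowest. *Hp* had the same order as *Lcn2* in both groups. Single neutrophil markers differed. Among those tested, *S100a8*, *S100a9* and *Cxcr2* had the order of *Lcn2* in both groups, and *Csf3r* in *Prmt3*f/f tumors only. *Ltf*, *Ngp*, *Retnlg* and *Mmp9* had it in neither group. Across genotypes the sum did not follow *Lcn2*. *Prmt3*LKO replicate 93 had 546 CPM of *Lcn2* with a neutrophil sum of 13.5 CPM. *Prmt3*f/f replicate 66 had 253 CPM with a sum of 22.2 CPM. The part of neutrophils in the *Lcn2* level was not tested.

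*Apcs* and *Crp* encode the pentraxins serum amyloid P and C-reactive protein, and both lie on chromosome 1. *Apcs* (ENSMUSG00000026542, chr1:172893961-172895041, minus strand) was at 98.1, 224 and 129 CPM in *Prmt3*f/f and 91.4, 162 and 103 CPM in *Prmt3*LKO tumors. Replicate 66, the lowest tumor for *Saa1*, *Saa2*, *Orm1* and *Orm2*, was the highest for *Apcs*. The log2 fold change was -0.34 (SE 0.34, adjusted p 0.944 by edgeR), and it was 0.063 without replicate 66.

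*Crp* (ENSMUSG00000037942, chr1:172698055-172833031, plus strand) was at 158, 158 and 212 CPM in *Prmt3*f/f and 174.5, 100.2 and 221 CPM in *Prmt3*LKO tumors. The *Prmt3*LKO tumors enclosed the *Prmt3*f/f tumors at both ends. The log2 fold change was -0.091 (SE 0.29, adjusted p 0.988 by edgeR).

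Compared per length, the median FPKM over the 6 tumors was 4011 for *Hp*, 636 for *Orm1*, 119.8 for *Apcs*, 80.4 for *Saa4*, 71.8 for *Lcn2*, 48.8 for *Saa1*, 45.7 for *Crp*, 23.4 for *Saa2*, 16.2 for *Orm2* and 5.05 for *Saa3*. Only the steps from *Hp* to *Orm1* and from *Orm1* to *Apcs* exceeded the range between tumors. All later neighbors in this order overlapped, and *Saa3*, with 1.43 to 121.4 FPKM, reached from the bottom of the order up to the level of *Apcs*. Together the 10 genes took 0.841%, 0.545% and 0.676% of counts in *Prmt3*f/f and 0.673%, 0.814% and 0.493% in *Prmt3*LKO tumors, and these shares overlapped.

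**Figure D2:**
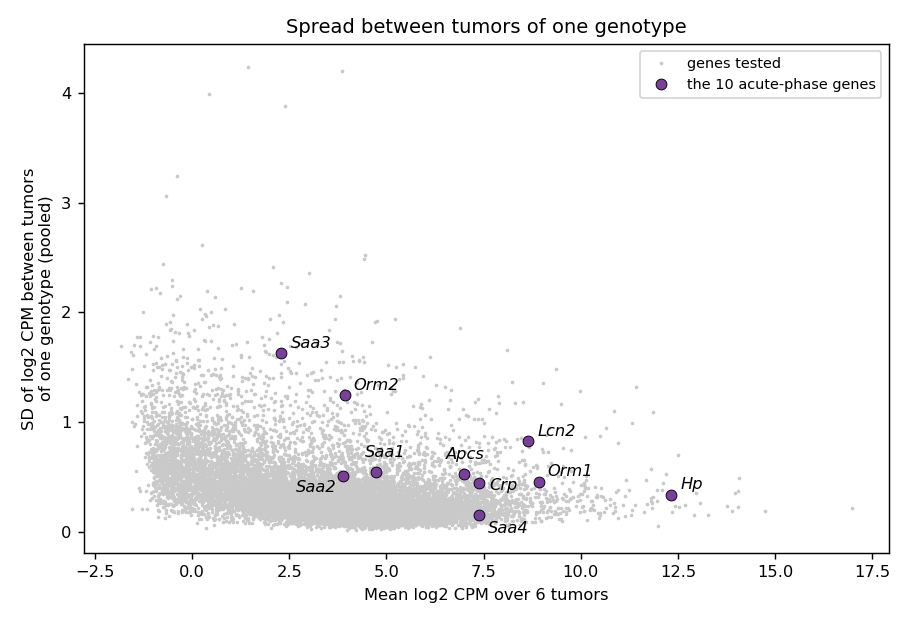
Spread between tumors of one genotype (pooled SD of log2 CPM, vertical axis) against the mean level (mean log2 CPM over the 6 tumors, horizontal axis) for the 13892 genes tested (grey) and the 10 acute-phase genes (purple). *Saa3*, *Orm2* and *Lcn2* sit high for their level, at 1.63, 1.25 and 0.82, and *Saa4* sits low, at 0.16.

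The acute-phase genes varied more between tumors of one genotype than most genes did. The median pooled SD of log2 CPM within genotypes was 0.519 for the 10 genes and 0.277 for all genes tested, and 9 of the 10, all but *Saa4*, were above the latter. Such a spread was not particular to the 10 genes. The median was 0.674 for the inducing cytokines tested, 0.520 for neutrophil and 0.514 for bile duct markers. It was 0.401 for other positive acute-phase genes, 0.282 for hepatocyte markers and 0.240 for negative acute-phase genes. *Saa3* was at percentile 99.3 of all genes, *Orm2* at 97.8, *Lcn2* at 92.5, and *Saa4* at 18.2. The SD among *Prmt3*f/f tumors was wider than among *Prmt3*LKO tumors for 7 of the 10 genes, or 70%, beside 56.2% of all genes tested. *Prmt3*f/f replicate 7 was the highest of the 6 tumors for *Saa1*, *Saa2*, *Orm1*, *Orm2* and *Lcn2*, and replicate 66 was the lowest for the first 4 of these.

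Over the 6 tumors, none of 45 pairs of the 10 genes had a correlation that passed the adjustment over all pairs, and the highest r values were not limited to close relatives. For *Saa2* and *Orm2*, Pearson's r of log2 CPM was 0.94 (exact permutation p = 0.0056, adjusted p 0.125) and Spearman's rho was 0.83 (exact permutation p = 0.058, adjusted p 0.525), and r was 0.85 without the 2 tumors farthest from the median of *Saa2*. For *Saa2* and *Orm1*, r was 0.93 (exact permutation p = 0.021, adjusted p 0.234) and rho 0.83 (exact permutation p = 0.058, adjusted p 0.525), and r was 0.41 without the 2 farthest tumors. For *Orm1* and *Orm2*, r was 0.93 (exact permutation p = 0.0042, adjusted p 0.125) and rho was 1 (exact permutation p = 0.0028, adjusted p 0.125), and r was 0.82 without the 2 tumors farthest from the median of *Orm1*. For *Saa1* and *Saa2*, r was 0.94 (exact permutation p = 0.014, adjusted p 0.208) and rho 0.89 (exact permutation p = 0.033, adjusted p 0.500), and r was 0.61 without the 2 farthest tumors. For *Hp* and *Lcn2*, r was 0.78 (exact permutation p = 0.068, adjusted p 0.306) and rho 0.94 (exact permutation p = 0.017, adjusted p 0.375), and r was 0.60 without the 2 tumors farthest from the median of *Hp*. *Saa1* and *Saa3* gave an r of -0.53 (exact permutation p = 0.285, adjusted p 0.610) and a rho of 0.086 (exact permutation p = 0.919, adjusted p 0.962). For *Saa1* and *Saa3* r was 0.73 without the 2 farthest tumors, so that its sign rested on these tumors.

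Genes outside the 10 whose level over the 6 tumors was most like that of *Saa1* were *Dapk2* (r = 0.99), *Pcolce2* (r = 0.99), *C1galt1* (r = 0.98), *Gemin8* (r = 0.98) and *Mat2b* (r = 0.97). Those most like *Lcn2* were *Utp3*, *Stam*, *Arhgap27*, *Bcl2l14* and *Rhod*, with an r of 0.987 to 0.997. They lead 12134 genes compared over only 6 points that share library and depth, and are given as a description with no p.

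Other positive acute-phase genes, a list of 22 that holds fibrinogen chains, hemopexin and complement C3 among others, gave a like count. Of 21 tested, 1 was lower at an unadjusted p under 0.05 by edgeR's quasi-likelihood test, a share near the 4.37% of all genes, and 0 were higher, none had groups apart, and the median log2 fold change was -0.070. The gene was the metallothionein *Mt2*, with 24.7, 72.1 and 105 CPM in *Prmt3*f/f and 24.1, 42.6 and 25.1 CPM in *Prmt3*LKO tumors (log2 fold change -1.14, SE 0.49, adjusted p 0.756 by edgeR). *Prmt3*f/f replicate 7 was as low as the *Prmt3*LKO tumors. Its neighbor in function *Mt1* followed it, with 50.1, 98.3 and 134 CPM against 50.6, 85.9 and 48.2 CPM, which overlapped.

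Negative acute-phase genes, plasma proteins whose output falls in inflammation, were tested for 8 of 8, and 0 passed an unadjusted p of 0.05 in either direction by edgeR's quasi-likelihood test, with a median log2 fold change of 0.23. *Alb*, serum albumin, was at 131282, 164722 and 108202 CPM in *Prmt3*f/f and 129606, 130162 and 119223 CPM in *Prmt3*LKO tumors (log2 fold change -0.093, SE 0.38, adjusted p 0.988 by edgeR). *Ttr*, transthyretin, had a log2 fold change of 0.37 (SE 0.25, adjusted p 0.890 by edgeR), and *Apoa2*, an apolipoprotein of high-density lipoprotein, one of 0.26 (SE 0.26, adjusted p 0.943 by edgeR).

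**Figure D3:**
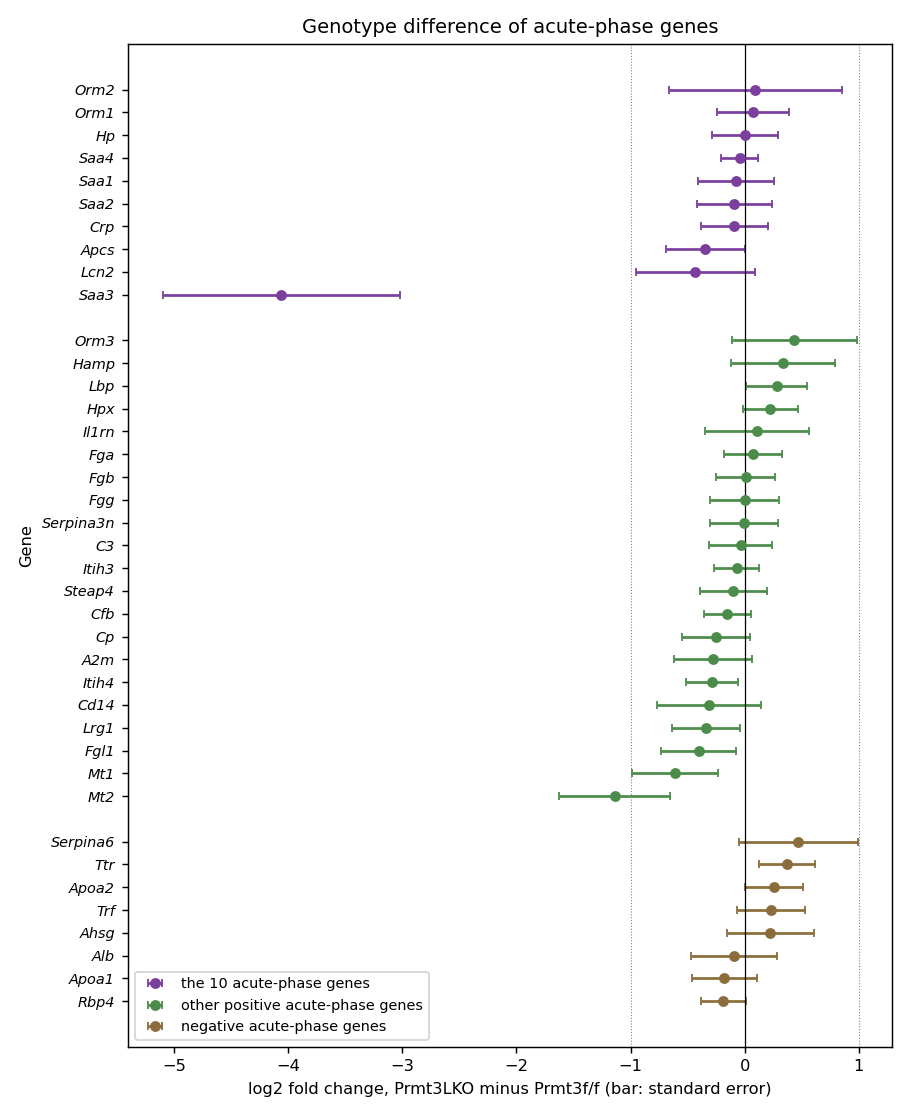
Log2 fold change of each acute-phase gene tested, *Prmt3*LKO minus *Prmt3*f/f, with bars for the standard error of edgeR's fit and dotted lines at a 2-fold change. Colors mark the 10 genes, 21 other positive and 8 negative acute-phase genes. All points lie within the dotted lines except those of *Saa3* at -4.06 and *Mt2* at -1.14.

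Of 10 cytokines listed as inducing these genes, 6 had enough counts to be tested. *Il6* had 8, 1 and 0 counts in *Prmt3*f/f and 0 counts in each *Prmt3*LKO tumor, and it was not tested. The limit that a count of 0 allows for counting error, 3 counts, was 0.171, 0.135 and 0.151 CPM in the *Prmt3*LKO tumors. Of 6 cytokines tested, 0 passed an unadjusted p of 0.05 by edgeR's quasi-likelihood test, all 6 had a negative log2 fold change, and the median was -0.52. *Il1b* was at 9.51, 3.31 and 5.38 CPM in *Prmt3*f/f and 2.06, 3.83 and 3.77 CPM in *Prmt3*LKO tumors (log2 fold change -0.91, SE 0.42, adjusted p 0.774 by edgeR). *Tnf* had a log2 fold change of -0.87 (SE 0.65, adjusted p 0.902 by edgeR) and was highest in replicate 66, at 0.886 CPM. The interleukin-6 relatives on the list differed in their top tumor, and they are named here after their values were seen. *Lif* was at 11.3, 2.193 and 5.38 CPM against 2.34, 8.66 and 3.72 CPM, and *Clcf1* was at 22.8, 7.18 and 6.26 CPM against 4.69, 10.6 and 7.09 CPM. *Ctf1*, at 2.82, 3.13 and 3.87 CPM against 2.63, 2.93 and 2.26 CPM, and *Osm*, with 5, 2 and 15 counts against 2, 4 and 3 counts, were highest in replicate 71. *Il1a* was at 5.54, 3.78 and 4.18 CPM against 4.57, 4.78 and 3.62 CPM. Replicate 7, the highest tumor for *Saa1*, *Saa2*, *Orm1*, *Orm2* and *Lcn2*, was thus the highest for *Il6*, *Il1a*, *Il1b*, *Lif* and *Clcf1*. It was not the highest for *Tnf*, *Ctf1* and *Osm*. The part of these cytokines in the differences between tumors was not tested.

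Among 11 receptor genes, 1 was lower at an unadjusted p under 0.05, against 4.37% of all genes, and 0 were higher, against 2.2%, with a median log2 fold change of -0.11. It was the oncostatin M receptor *Osmr*, at 25.7, 20.7 and 15.0 CPM in *Prmt3*f/f and 14.9, 13.0 and 11.0 CPM in *Prmt3*LKO tumors (log2 fold change -0.66, SE 0.23, adjusted p 0.660 by edgeR). The groups were apart by a small margin. The interleukin-6 receptor *Il6ra* was at 29.9, 55.1 and 61.2 CPM against 32.6, 20.5 and 47.4 CPM, and its signaling partner gp130, *Il6st*, at 129, 95.9 and 149 CPM against 114, 87.3 and 87.4 CPM. Both overlapped between genotypes. The interleukin-1 receptor *Il1r1* had a log2 fold change of -0.62 (SE 0.29, adjusted p 0.774 by edgeR).

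Of 13 kinases and transcription factors of these pathways, 0 passed an unadjusted p of 0.05 by edgeR's quasi-likelihood test in either direction, and the median log2 fold change was -0.087. *Stat3* was at 106, 135 and 142 CPM in *Prmt3*f/f and 123.4, 116 and 87.6 CPM in *Prmt3*LKO tumors. *Jak2*, the kinase upstream, had a log2 fold change of -0.30 (SE 0.15, adjusted p 0.776 by edgeR) with groups that did not overlap. The C/EBP genes *Cebpa*, *Cebpb* and *Cebpd* had log2 fold changes of 0.42 (SE 0.20), -0.13 (SE 0.28) and 0.052 (SE 0.24).

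Feedback and immediate target genes of the pathways were lower at an unadjusted p under 0.05 for 2 of 8, against 4.37% of all genes, and higher for 0, with a median log2 fold change of -0.43. *Pim1*, a kinase gene induced by STAT signals, was at 10.3, 14.1 and 20.5 CPM in *Prmt3*f/f and 8.06, 5.95 and 6.79 CPM in *Prmt3*LKO tumors (log2 fold change -1.11, SE 0.27, adjusted p 0.592 by edgeR). *Tnfaip3*, an inhibitor of NF-kB signaling, was at 12.0, 14.5 and 20.5 CPM against 11.7, 9.25 and 9.05 CPM (log2 fold change -0.65, SE 0.23, adjusted p 0.684 by edgeR). In both, replicate 71 was the highest and the groups were apart, as they were in this direction for 6.6% of all genes. *Socs3*, the STAT3-induced inhibitor of gp130 signaling, was at 28.1, 13.1 and 17.1 CPM against 11.3, 16.1 and 9.85 CPM, with replicate 7 highest and groups that overlapped (log2 fold change -0.64, SE 0.31, adjusted p 0.775 by edgeR).

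Of 10 genes for receptors and binding partners of the proteins, 3 were lower at an unadjusted p under 0.05, against 4.37% of all genes, and 0 were higher, with a median log2 fold change of -0.39. *Fpr2*, a receptor of serum amyloid A on myeloid cells, was at 2.72, 1.96 and 2.07 CPM in *Prmt3*f/f and 1.03, 0.722 and 1.36 CPM in *Prmt3*LKO tumors (log2 fold change -1.12, SE 0.36, adjusted p 0.646 by edgeR). *Fcgr4*, one of the Fc receptors to which pentraxins are known to bind, was at 14.9, 11.3 and 13.4 CPM against 9.32, 8.17 and 9.70 CPM (log2 fold change -0.54, SE 0.17, adjusted p 0.640 by edgeR). Both genes are expressed by myeloid cells, and the macrophage and neutrophil marker sums were also lower in *Prmt3*LKO tumors. The part of these cells in the levels of *Fpr2* and *Fcgr4* was not tested. Other receptor genes of the list, named after their values were seen, were mixed. *Tlr2* was lower without overlap (log2 fold change -0.64), whereas *Fcgr1* (-0.15) and *Tlr4* (-0.13) overlapped between genotypes.

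**Figure D4:**
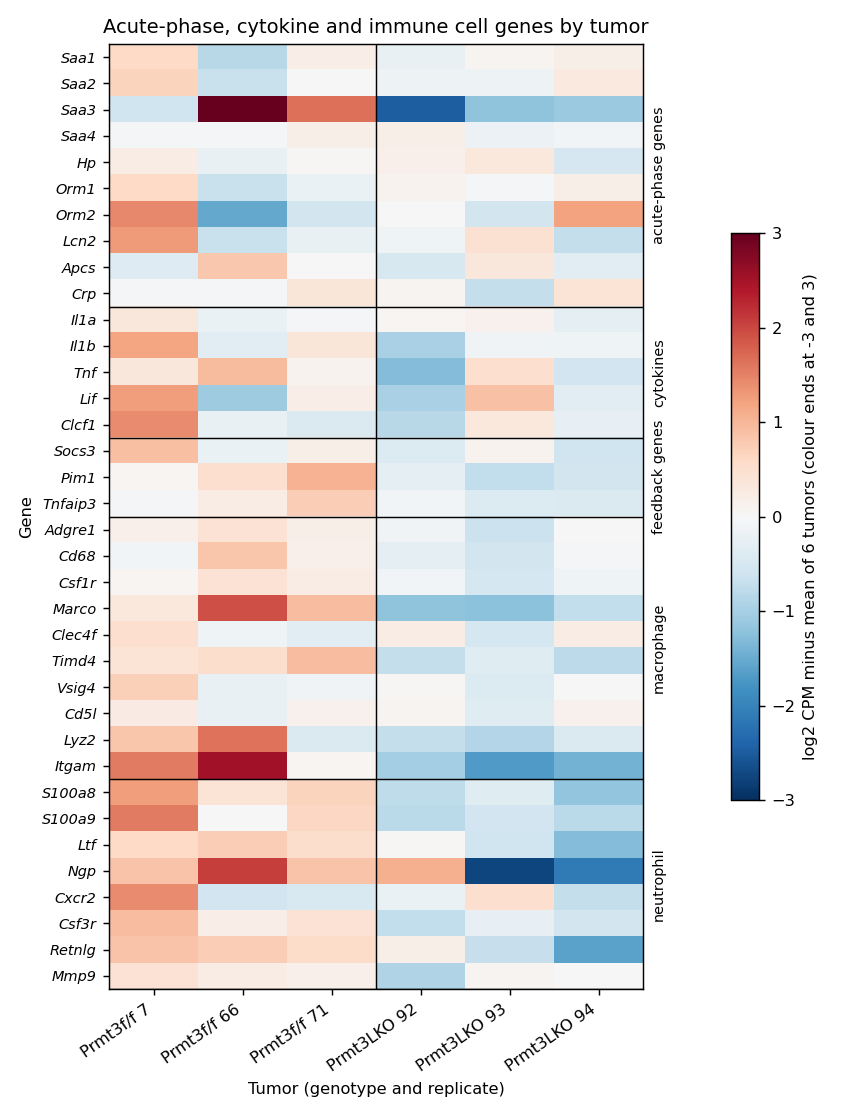
Level of genes in each tumor, as log2 CPM minus the mean of the 6 tumors, with colors ending at -3 and 3. Drawn are the acute-phase genes, the macrophage markers and the neutrophil markers tested. Of the cytokines only *Il1a*, *Il1b*, *Tnf*, *Lif* and *Clcf1* are drawn, and of the feedback genes only *Socs3*, *Pim1* and *Tnfaip3*. For *Saa3*, *Marco* and *Csf3r* the 3 *Prmt3*LKO columns lie below the 3 *Prmt3*f/f columns, whereas *Saa1*, *Orm2* and *Lcn2* are highest in *Prmt3*f/f replicate 7 and mixed elsewhere.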

How the data were processed

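RNA was taken from 6 liver tumors, grouped by the genotype in the labels. Reads were aligned to GRCm38 with HISAT2 2.0.4, and the submitters' processing notes also name StringTie 1.3.0 and bcl2fastq 2.19. How counts were made, and whether strand was used, is not given in the sources used here. The authors deposited whole read counts per gene, not normalized, and FPKM, which divide each count by gene length and total count. All 12 columns were mapped, and 0 were left unused.

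Genes were filtered with filterByExpr (minimum count 10, minimum total 15), scaled by TMM and tested with edgeR 4.0.16 (quasi-likelihood, R 4.3.3), with Benjamini-Hochberg adjustment over 13892 genes. A call needed an adjusted p under 0.05 and a fold change at or above 2, or at or below 0.5. CPM use the TMM-scaled totals, and log2 CPM a prior count of 2. An exact permutation test (two-sided) was run on each gene named with such a p. Scripts were tested on simulated data. A symbol with more than 1 identifier (*Itgam*) was taken as the one with the larger total.

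The 10 genes and all lists were chosen with earlier results of these data known. Beside the 10 genes, the text names *Prmt3*, the main cytokine, receptor and factor genes, the 2 genes of smallest p in each list (1 of which is not reported here), and the 5 genes most like *Saa1* and *Lcn2* (mean of at least 1 CPM, predicted genes left out). DESeq2 1.42.0, the edgeR exact test, limma-voom (3.58.1), log2(FPKM + 1) with limma, other scalings and filters, and leaving out each tumor were the alternatives.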

Additional observations from a re-analysis of the deposited data

How the results depend on the processing

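The count of the 10 genes called lower in *Prmt3*LKO was 0, and became 1 (*Saa3*) with the edgeR exact test, against 0.252% of all genes by that test, and 1 with the unadjusted p under 0.05 and the same fold limit, an alternative chosen after seeing the data, against 1.77% of all genes tested. None was called higher under any alternative run. *Saa3* stayed negative under all 13 alternatives, from -4.60 to -2.47 with 1 tumor left out and from -4.08 to -2.92 otherwise, with adjusted p from 0.0238 to 0.9998 (edgeR, DESeq2 or limma). Its value by the exact test was -4.07. *Prmt3* also stayed negative, at -1.80 to -1.34 with 1 tumor left out and -1.59 to -0.81 otherwise, the smallest with log2(FPKM + 1), and passed the threshold by DESeq2 (-1.55, adjusted p 0.00357) and the exact test (-1.55, adjusted p 0.00735). The log2 fold change of each of the other 9 genes turned sign under at least 1 alternative. With 1 tumor left out, it ran from -0.39 to 0.25 for *Saa1*, -0.36 to 0.31 for *Saa2*, -0.15 to 0.039 for *Saa4*, -0.16 to 0.21 for *Hp*, -0.17 to 0.48 for *Orm1*, -0.57 to 1.38 for *Orm2*, -0.77 to 0.36 for *Lcn2*, -0.63 to 0.063 for *Apcs* and -0.36 to 0.17 for *Crp*. *Saa1* also turned with limma-voom (0.032) and log2(FPKM + 1) (0.0058). *Hp* turned with total counts in place of TMM (-0.017), a minimum mean of 1 CPM (-0.0011), limma-voom (-0.023) and log2(FPKM + 1) (-0.046). The cause of these turns was not tested. No paired analysis was possible because the groups share no replicate numbers.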

Other observations

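Genes outside the 10 whose level over the 6 tumors was most like that of *Saa3*, a comparison chosen after its values were seen, were *Nptxr* (r = 0.99), *Itgb2* (r = 0.99), *Ighv1-82* (r = 0.98), *Zfp516* (r = 0.98) and *Sh3d21* (r = 0.98). *Itgb2*, the integrin chain that leukocytes share, had a log2 fold change of -0.95, and the immunoglobulin segment *Ighv1-82* one of -3.51, neither past the adjusted p in edgeR's quasi-likelihood test (0.592 and 0.606). The correlations are a description over 6 tumors that share library and depth, with no p.

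Lists of other cell types gave the following values. Of 12 hepatocyte markers, 0 passed an unadjusted p of 0.05 by edgeR's quasi-likelihood test, and *Asgr1*, the asialoglycoprotein receptor, had a log2 fold change of 0.41 (SE 0.19). Bile duct markers summed to 4118, 1038 and 347 CPM in *Prmt3*f/f and 369, 294 and 221 CPM in *Prmt3*LKO tumors, mostly from osteopontin, *Spp1*. The sum and *Spp1* were highest in replicate 7, the tumor with the most *Saa1* and *Lcn2*. Other bile duct markers differed in their top tumor, and those given here were named after their values were seen. *Krt7* was highest in replicate 7, *Sox9* in replicate 66, and *Krt19*, *Epcam* and *Muc1* in *Prmt3*LKO replicate 94. *Spp1* had a log2 fold change of -2.77 (SE 0.84, adjusted p 0.620 by edgeR) with groups that overlapped. Adipocyte markers overlapped between genotypes, at 35.8 to 67.3 and 39.1 to 55.6 CPM, with log2 fold changes of -0.29 for *Lipe* and 0.27 for *Fabp4*. Kidney markers summed to 3.46, 4.25 and 2.95 CPM in *Prmt3*f/f and 11.8, 12.6 and 8.90 CPM in *Prmt3*LKO tumors, without overlap. Of these, *Slc34a1*, a phosphate transporter of the proximal tubule, had 3, 3 and 2 counts against 14, 53 and 16 counts, and *Kap*, a kidney androgen-regulated gene, a log2 fold change of 1.35 (SE 0.23, adjusted p 0.592 by edgeR). The part of these cells in the acute-phase values was not tested.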
